A study of Mus musculus with 10 samples.

Results

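The T cell receptor (TCR) complex and its first signaling steps were followed through 9 genes: Cd3d, Cd3e, Cd3g and Cd247, which encode the signaling chains of the complex, the co-receptor Cd4, the kinases Lck and Zap70, the scaffold Lat and the surface regulator Cd5. They were taken by symbol from a count table of 21556 genes, and all 9 were found and passed the low-count filter. RNA was measured in mouse regulatory T cells (Tregs), CD4 T cells that restrain immune responses, after injection of a lymphangiogenic melanoma line. The cells had been sorted by red fluorescence (RFP) from tumor or lymph node (LN) of mice aged 10 weeks. MHCIIdeltaProx-1 mice, called MHCII-deleted here, lose MHC class II wherever a Prox1-driven Cre is active, which is chiefly the lymphatic endothelium. Control mice (MHCIIfl/fl) are Cre-negative and carry the same floxed allele. There were 2 tumor libraries from MHCII-deleted mice, 3 tumor libraries from control mice, 2 LN libraries from MHCII-deleted mice and 3 LN libraries from control mice. The labels do not say whether the replicates came from separate mice or from pools, so p-values measure the spread between libraries, which may be technical. Prox1 is not exclusive to lymphatic vessels, and the deletion itself takes place outside the sorted cells, so these libraries do not check it.

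The TCR recognises peptide on MHC molecules but has no signaling tail of its own. The CD3 chains and the zeta chain carry tyrosine motifs that Lck phosphorylates. Lck is brought to the complex in part by CD4, which binds MHC class II. ZAP-70 docks on the phosphorylated motifs and phosphorylates LAT, on which the downstream effectors assemble. CD5 dampens the signal, and its surface level is known to follow the strength of self-recognition in developing T cells. Tregs depend on TCR signals for much of their suppressive function.

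Cd3g, Cd3d and Cd3e lie side by side on mouse chromosome 9 within 40056 bases (GRCm38, GENCODE M21). Cd3g runs on the minus strand from 44969572 to 44980431, Cd3d on the plus strand from 44981786 to 44987339, and Cd3e on the minus strand from 44998740 to 45009627. Cd3g and Cd3d thus point away from each other with 1354 bases between them, and 11400 bases separate Cd3d from Cd3e. The other members are scattered. Zap70 (36761798 to 36782818, plus strand) and Cd247 (165788681 to 165877277, plus strand) are on chromosome 1, Lck (129548344 to 129573641, minus) on chromosome 4 and Cd4 (124864692 to 124888221, minus) on chromosome 6. Lat (126363824 to 126369570, minus) is on chromosome 7 and Cd5 (10717116 to 10739002, minus) on chromosome 19. All 9 are protein coding. Their identifiers in the table are ENSMUSG00000032094 (Cd3d), ENSMUSG00000032093 (Cd3e), ENSMUSG00000002033 (Cd3g), ENSMUSG00000005763 (Cd247), ENSMUSG00000023274 (Cd4), ENSMUSG00000000409 (Lck), ENSMUSG00000026117 (Zap70), ENSMUSG00000030742 (Lat) and ENSMUSG00000024669 (Cd5).

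RefSeq promoter windows (GRCm38.p6, 250 bases before to 50 after the annotated start) were found for 8 of the 9 genes, all but Cd4. They are shown for the CD3 cluster, and for Zap70, Cd247 and Lck, because Zap70 kept the most constant ratio to Cd3e over the libraries, and because Cd247 and Lck were the 2 members whose ratio to Cd3e was lower in every tumor library than in any LN library. Each is written 5′ to 3′ on the gene's own strand, and capitals mark matches on either strand to CGGAAG or AGGAAG (the core of ETS factor sites), TGTGGT (RUNX) and CACCTG (an E-box).
Cd3g (chr9:44980382-44980681, minus strand): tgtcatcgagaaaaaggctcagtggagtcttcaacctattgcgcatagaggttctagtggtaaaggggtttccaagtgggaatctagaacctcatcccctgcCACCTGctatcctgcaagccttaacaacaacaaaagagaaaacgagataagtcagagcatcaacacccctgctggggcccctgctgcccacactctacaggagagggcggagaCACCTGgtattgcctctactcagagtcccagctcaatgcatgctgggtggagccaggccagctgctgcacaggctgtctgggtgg
Cd3d (chr9:44981536-44981835, plus strand): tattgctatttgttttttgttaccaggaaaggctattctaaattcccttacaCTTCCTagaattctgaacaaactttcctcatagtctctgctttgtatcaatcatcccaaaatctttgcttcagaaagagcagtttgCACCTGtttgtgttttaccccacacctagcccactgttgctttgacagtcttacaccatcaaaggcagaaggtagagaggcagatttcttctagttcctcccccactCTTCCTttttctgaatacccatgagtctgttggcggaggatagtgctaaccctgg
Cd3e (chr9:45009562-45009861, minus strand): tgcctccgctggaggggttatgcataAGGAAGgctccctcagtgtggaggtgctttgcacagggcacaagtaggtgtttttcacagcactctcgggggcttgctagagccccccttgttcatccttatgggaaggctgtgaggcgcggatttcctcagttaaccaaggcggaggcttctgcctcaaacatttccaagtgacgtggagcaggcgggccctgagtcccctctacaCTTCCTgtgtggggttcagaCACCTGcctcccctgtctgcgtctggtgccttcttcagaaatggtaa
Zap70, first of 3 windows (chr1:36761548-36761847, plus strand): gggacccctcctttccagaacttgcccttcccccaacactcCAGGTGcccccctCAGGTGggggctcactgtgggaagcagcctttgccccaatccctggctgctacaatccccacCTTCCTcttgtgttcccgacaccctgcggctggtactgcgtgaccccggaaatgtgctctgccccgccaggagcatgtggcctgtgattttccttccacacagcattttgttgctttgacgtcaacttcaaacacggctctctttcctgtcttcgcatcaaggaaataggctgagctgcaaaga
Cd247 (chr1:165788431-165788730, plus strand): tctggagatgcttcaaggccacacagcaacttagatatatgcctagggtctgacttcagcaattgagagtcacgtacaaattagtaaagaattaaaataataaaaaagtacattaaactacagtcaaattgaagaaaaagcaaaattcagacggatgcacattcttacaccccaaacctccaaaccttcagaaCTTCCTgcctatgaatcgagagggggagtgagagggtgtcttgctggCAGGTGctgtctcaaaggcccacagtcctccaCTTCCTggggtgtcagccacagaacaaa
Lck, upstream of 2 windows (chr4:129573592-129573891, minus strand): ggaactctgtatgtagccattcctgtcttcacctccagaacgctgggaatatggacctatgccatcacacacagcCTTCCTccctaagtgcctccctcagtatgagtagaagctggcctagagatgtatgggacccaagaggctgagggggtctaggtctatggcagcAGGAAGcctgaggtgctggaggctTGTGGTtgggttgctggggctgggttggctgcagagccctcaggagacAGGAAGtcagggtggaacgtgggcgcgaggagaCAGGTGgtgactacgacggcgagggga

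The ETS core was present in 9 of the 11 windows of these genes, against 46.5% of all 32851 windows in the table. The E-box was present in 9 of 11, against 20.2%, and the RUNX core in 3 of 11, against 16.8%. The Cd3g window, alone among those printed, had no match to the ETS core, and it held the E-box at 2 places. It also held the GATA core AGATAA, which 1 of the 11 windows had, against 11.2% of all windows. TATAAA was in 0 of 11 windows, against 13.6%. These matches describe the letters of the windows and show no binding.

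The libraries held 28539329 to 35736175 counts and 12825 to 14703 detected genes each. Member counts lay between 4821 (Lat) and 87331 (Lck) per library, so counting error is small beside the spread between libraries. The sorted identity was visible in every group: Foxp3, the lineage factor of Tregs, averaged 354 CPM (a gene's share of the library's counts, scaled to a fixed total) in tumors of MHCII-deleted mice and 689 in tumors of control mice, and 625 and 717 CPM in LN of the same genotypes. Cd8a did not exceed 13.9 CPM in any library, and Cd8b1 did not exceed 31.8 CPM. RNA of other cells was present as well. The 10 melanoma markers, all detected in tumor, summed to 19273 to 23391 CPM in tumors of MHCII-deleted mice and 4416 to 8805 CPM in tumors of control mice, and to 22.1 to 23.8 and 14.0 to 22.0 CPM in LN. The 6 fibroblast markers summed to 281 to 674 and 407 to 3821 CPM in tumors of MHCII-deleted and of control mice. The 11 myeloid markers summed to 36.6 to 41.3 and 26.0 to 35.4 CPM in those groups, without overlap. The 7 NK cell markers summed to 5.32 to 6.82 and 4.49 to 9.32 CPM there. Since other T cells also express most members, the 4 CD8 T cell markers were summed too. They came to 15.1 to 18.6 and 29.6 to 46.9 CPM in tumors, and 26.8 to 29.0 and 23.3 to 33.4 CPM in LN. Most of this was Cd8b1, with means of 12.6 and 24.3 CPM in tumors and 25.5 and 27.4 CPM in LN of the same genotypes. Of 5 gamma delta T cell markers, the 2 in the table summed to at most 0.287 CPM.

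All 9 genes were lower in tumors of MHCII-deleted mice than in every other group. Set against tumors of control mice, the log2 fold changes lay between -1.38 and -1.04; set against LN of MHCII-deleted mice, they spread further, from -1.55 (Lck) to -0.79 (Cd4). Levels are given below as TMM-normalised CPM, which express a gene relative to all RNA of the library. In such a bulk measurement, fewer T cells and less of an RNA per T cell cannot be told apart.

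Cd3e stood at 643 and 718 CPM in tumors of MHCII-deleted mice and at 1513, 1666 and 1742 CPM in tumors of control mice, and at 1752 and 1741 CPM in LN of MHCII-deleted mice and at 1749.8, 1853 and 1770.1 CPM in LN of control mice. Cd3e encodes the CD3 epsilon chain, which pairs with either of the other CD3 chains. The 2 libraries from tumors of MHCII-deleted mice lay far under the other 8, which spanned 1513 to 1853 CPM. Of the tumor libraries from control mice only the highest reached the LN range. Cd3d stood at 319 and 363 CPM in tumors of MHCII-deleted mice and at 959, 768 and 865 CPM in tumors of control mice, and at 938 and 899 CPM in LN of MHCII-deleted mice and at 915, 1053 and 1072 CPM in LN of control mice. Cd3g stood at 487 and 608 CPM in tumors of MHCII-deleted mice and at 1539.5, 1309 and 1419 CPM in tumors of control mice, and at 1201 and 1196 CPM in LN of MHCII-deleted mice and at 1277, 1367 and 1281 CPM in LN of control mice. CD3 delta and CD3 gamma each form a dimer with CD3 epsilon. Cd3d in the 3 tumor libraries of control mice overlapped with LN, and Cd3g was higher in 2 of those 3 libraries than in any LN library.

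Cd247 stood at 198 and 189 CPM in tumors of MHCII-deleted mice and at 394, 409 and 389 CPM in tumors of control mice, and at 576 and 551 CPM in LN of MHCII-deleted mice and at 541, 594 and 557 CPM in LN of control mice. Cd247 encodes the zeta chain, which carries more activation motifs than any other chain of the complex and completes its assembly. Here the tumor libraries of control mice also lay under all LN libraries, with no overlap. The exons of Cd247 share 3007 of their 5329 bases with Pou2f1 on the opposite strand. The strand setting of the counting is not given in the sources used here, so the values of Cd247 are less certain than those of the other members. Pou2f1 itself stood at no more than 26.2 CPM in any library. That does not settle the matter, because reads in the shared bases may have been counted for neither gene.

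Cd4 stood at 657 and 632 CPM in tumors of MHCII-deleted mice and at 1384, 1416 and 1232 CPM in tumors of control mice, and at 1095 and 1137 CPM in LN of MHCII-deleted mice and at 1126, 1196 and 1165 CPM in LN of control mice. Cd4 was the member with the smallest spread over all libraries, 2.24-fold between the lowest and the highest. Its tumor libraries from control mice were all higher than any LN library, the opposite of Cd247. Lck stood at 733 and 859 CPM in tumors of MHCII-deleted mice and at 1822, 1737 and 1655 CPM in tumors of control mice, and at 2328 and 2349 CPM in LN of MHCII-deleted mice and at 2420.0, 2356 and 2381 CPM in LN of control mice. Lck, the Src family kinase that starts the cascade, followed the order seen for Cd247: lowest in tumors of MHCII-deleted mice, intermediate in tumors of control mice and highest in LN, with no overlap between these 3 levels. Zap70 stood at 168 and 184 CPM in tumors of MHCII-deleted mice and at 404, 428 and 436 CPM in tumors of control mice, and at 482 and 459.7 CPM in LN of MHCII-deleted mice and at 481, 487 and 478 CPM in LN of control mice. Zap70 varied little within groups, with an SD of 4.57 CPM around 482 CPM in LN of control mice (n = 3). Its 3 levels did not overlap either. Tumors of control mice reached at most 436 CPM, and the lowest LN library held 459.7 CPM.

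Lat stood at 162 and 194 CPM in tumors of MHCII-deleted mice and at 405, 380.3 and 469 CPM in tumors of control mice, and at 449 and 428 CPM in LN of MHCII-deleted mice and at 430.2, 436 and 473 CPM in LN of control mice. Cd5 stood at 422 and 461 CPM in tumors of MHCII-deleted mice and at 937, 1089 and 997 CPM in tumors of control mice, and at 1020.0 and 969 CPM in LN of MHCII-deleted mice and at 1005, 1076 and 993 CPM in LN of control mice. Lat, the scaffold, and Cd5, the attenuating receptor, did not separate tumors of control mice from LN: the groups overlapped for both.

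**Figure D1:**
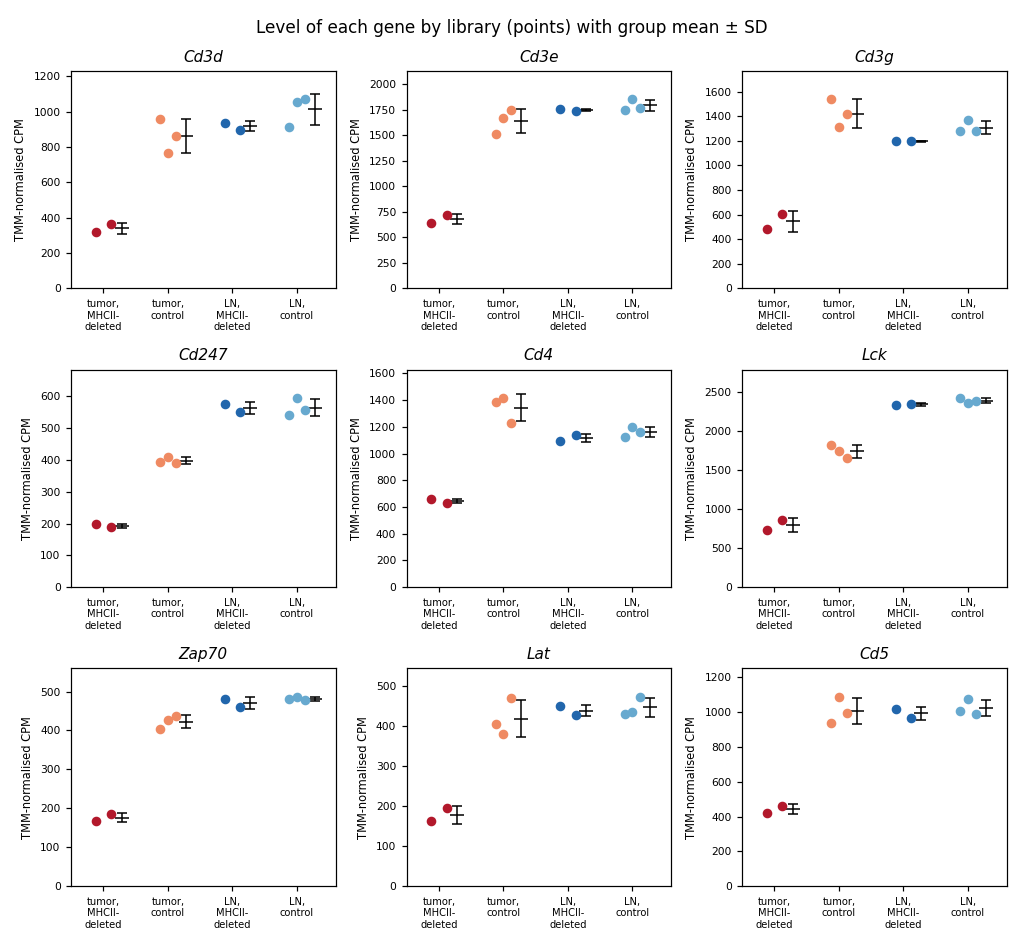
TMM-normalised CPM (vertical axes, linear from 0) of the 9 genes in each of the 10 libraries (points), with the mean and SD of each group as a bar beside them; groups run from tumors of MHCII-deleted mice on the left to LN of control mice on the right. For every gene the 2 leftmost points lie under all others. Cd247 and Lck show a second step between tumors of control mice and LN, and Zap70 a smaller one, also without overlap.

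Levels of different genes can be compared only per length, taken here as the joined length of all annotated exons of a gene. Per kilobase of exon, Lck was the most abundant member in each group, at 272 CPM per kilobase in tumors of MHCII-deleted mice, 593 in tumors of control mice, 798 in LN of MHCII-deleted mice and 814 in LN of control mice. Cd247 was the least abundant, at 36.3, 74.6, 106 and 106 CPM per kilobase in the same groups. Its length of 5329 bases includes the 3007 shared with Pou2f1. How reads there were counted is not known, so its last place is uncertain. In LN of control mice the order between them was Cd3d (558), Cd3e (439), Cd3g (400.2), Cd4 (288), Cd5 (208), Lat (161) and Zap70 (161 CPM per kilobase). Only Lat and Zap70 overlapped there between neighbours. In tumors of control mice the 3 CD3 genes stood at 476 (Cd3d), 435 (Cd3g) and 402 CPM per kilobase (Cd3e), and each overlapped with the next. In tumors of MHCII-deleted mice Cd4 (159.9 CPM per kilobase) also came within the range of Cd3e (167) and Cd3g (167).

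The first comparison asked what loss of MHC class II on lymphatic endothelium does to Tregs in the tumor. All 9 genes fell in tumors of MHCII-deleted mice relative to tumors of control mice (edgeR quasi-likelihood test, Benjamini-Hochberg adjusted p under 0.05 over 13920 genes). In this contrast 13.7% of all tested genes were called lower and 15.0% higher, and the median log2 fold change was -1.23 over the 9 genes and 0.10 over all tested genes. Cd3g had a log2 fold change of -1.38 ± 0.11 (SE), a 2.60-fold lower level (edgeR, adjusted p = 0.000144). Cd3d had -1.34 ± 0.12 (edgeR, adjusted p = 0.00019) and Cd3e -1.27 ± 0.09 (edgeR, adjusted p = 0.000144). The errors of these 3 overlap, and their order changes with the library left out: without tumor library 1 of MHCII-deleted mice Cd3g had -1.23 and Cd3d -1.25. The smallest falls were those of Cd247, -1.04 ± 0.09, and Cd4, -1.06 ± 0.09, which are 2.05-fold and 2.08-fold lower levels. Lck (-1.13 ± 0.09), Cd5 (-1.19 ± 0.10), Lat (-1.23 ± 0.12) and Zap70 (-1.26 ± 0.09) lay in between. The groups did not overlap for any of the 9, as was true of 24.0% of all tested genes in this direction. Other sums moved with these groups. The myeloid sum was higher in tumors of MHCII-deleted mice, and the CD8 T cell and B cell sums were lower, each without overlap. The 6 mast cell markers summed to 13.1 to 22.0 CPM in tumors of MHCII-deleted mice and 24.2 to 33.9 CPM in tumors of control mice. The 10 melanoma markers summed to 19273 to 23391 CPM in tumors of MHCII-deleted mice and 4416 to 8805 CPM in tumors of control mice. The 8 endothelial and lymphatic markers summed to 126 to 293 and 97.0 to 123 CPM, with no overlap in either list. Of the latter, Pecam1 went the other way, with means of 68.3 and 84.9 CPM, while every other marker averaged higher in MHCII-deleted mice. Much of that rise was Flt4 (means of 36.4 and 2.42 CPM) and Lyve1 (43.8 and 2.65 CPM). Lyve1 was uneven, with 84.9 CPM in its highest library. A further list, T cell and Treg identity, held Foxp3, Il2ra, Ikzf2, Ctla4 and the members Cd3e and Cd4. Its 6 genes summed to 3316 to 3637 CPM in tumors of MHCII-deleted mice and 7068 to 7157 CPM in tumors of control mice. Because Cd3e and Cd4 are in it, this sum is not separate from the member falls. In the same order of groups, Foxp3 averaged 354 and 689 CPM, Il2ra 190 and 395, Ikzf2 188 and 370, and Ctla4 1389 and 2866. The part of these sums in the falls was not tested. With a GC index as a covariate (the median deviation of genes whose transcripts hold a 100-base window of over 75% GC), chosen after seeing the data, Cd3g, Lck and Zap70 were still called lower (3 of 9, with 0.201% of all genes called lower), and the other 6 had adjusted p between 0.0566 and 0.112 in edgeR. That index does not overlap between the genotypes within either tissue.

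In LN, where the same deletion was compared, 0 of the 9 genes passed the test. All 9 log2 fold changes were between -0.14 (Cd3d, SE 0.12) and 0.00 (Cd247, SE 0.08), with adjusted p of 0.941 or more in edgeR. At an unadjusted p under 0.05 there were also 0, and DESeq2 and limma-voom called 0. The background was low in this contrast: 0.0359% of tested genes were called lower and 1.07% higher. Groups did not overlap for 2 of the 9, Cd3g and Lck, both lower in LN of MHCII-deleted mice, as was true of 11.9% of all tested genes in this direction. Testing the difference of the deletion effects (tumor minus LN) gave a lower value for 9 of 9 genes, against 6.57% of all tested genes called lower and 4.14% higher. The differences ran from -1.25 ± 0.15 for Cd3g to -1.001 ± 0.12 for Cd4 on the log2 scale, with adjusted p between 0.00312 and 0.0043 (edgeR).

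**Figure D2:**
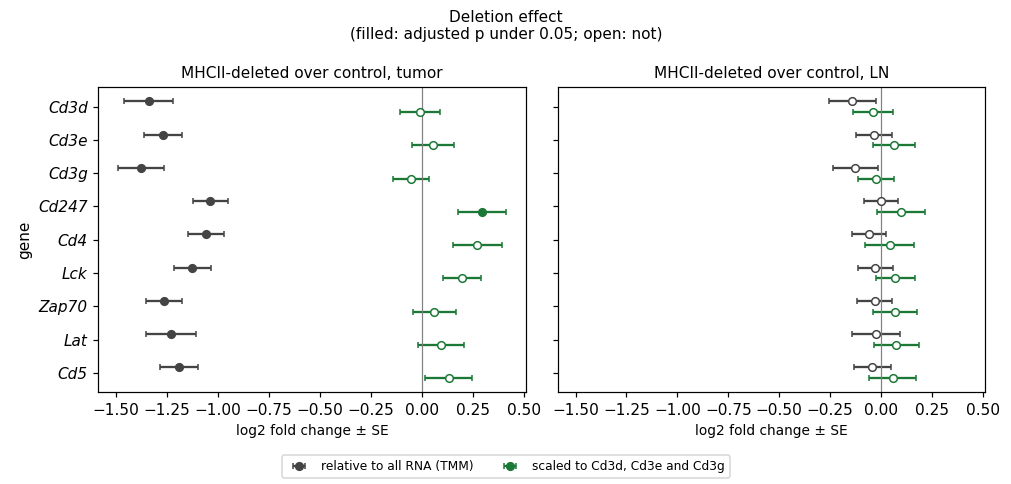
Log2 fold change ± SE (horizontal axis) of MHCII-deleted over control mice for each gene, in tumor (left panel) and LN (right panel), relative to all RNA of a library (grey) and with the libraries scaled to Cd3d, Cd3e and Cd3g (green). Filled points passed adjusted p under 0.05; the grey tumor values lie between -1.38 and -1.04, and all green values lie within -0.05 to 0.30.

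The second comparison set Tregs of the tumor against those of the LN; whether the LN drained the tumor is not given in the sources used here. In MHCII-deleted mice 9 of 9 genes were lower in tumor, in a contrast where 20.1% of tested genes were called lower and 24.3% higher. The falls were largest for Lck (-1.55 ± 0.10) and Cd247 (-1.54 ± 0.09) and smallest for Cd4 (-0.79 ± 0.09), with adjusted p between 2.39e-06 and 0.00011 (edgeR). Tumor and LN did not overlap for any of the 9, as for 36.4% of all tested genes in this direction. This comparison shares its tumor libraries with the deletion effect in tumor, and the melanoma markers, at 22.1 to 23.8 CPM in LN, differ between these groups as well. Their part was not tested. In control mice only Cd247 and Lck were called, both lower in tumor, in a contrast where 16.1% of tested genes were called lower and 22.8% higher. Cd247 had a log2 fold change of -0.50 ± 0.07 (edgeR, adjusted p = 0.000533), a 1.42-fold lower level, and Lck -0.46 ± 0.08 (edgeR, adjusted p = 0.0013), 1.37-fold lower. Cd4 had 0.21 ± 0.08 and missed the threshold (edgeR, adjusted p = 0.0511); it passed with RLE size factors in edgeR (adjusted p = 0.0264), DESeq2 (0.00559) and limma-voom (0.0268). It also passed in edgeR without tumor library 3 of control mice (adjusted p = 0.0206) or tumor library 2 of MHCII-deleted mice (adjusted p = 0.05), and not without any other single library (adjusted p up to 0.15). The other members had values from -0.23 (Cd3d) to 0.12 (Cd3g) and did not pass. Tumor and LN libraries of control mice did not overlap for 4 genes with a lower level in tumor (Cd3e, Cd247, Lck and Zap70) and 1 with a higher level (Cd4), against 24.0% and 29.0% of all tested genes.

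**Figure D3:**
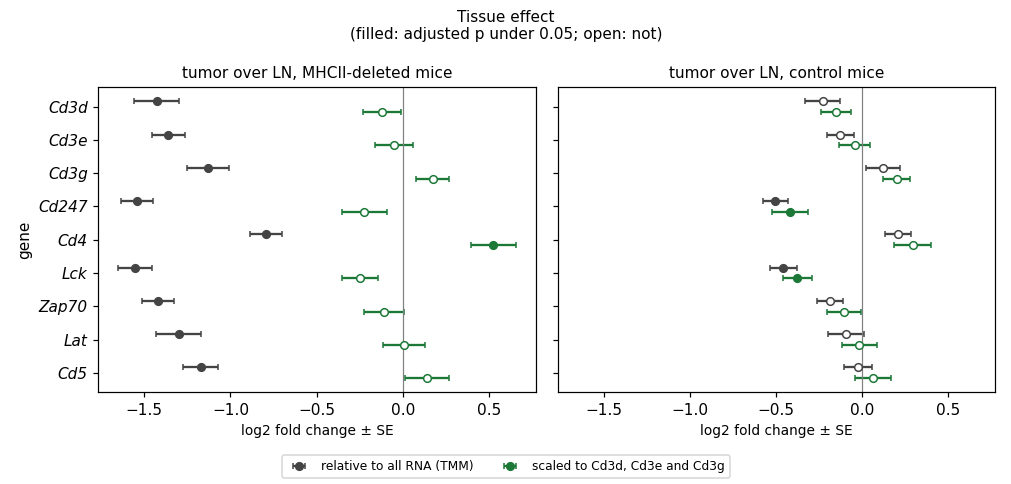
Log2 fold change ± SE (horizontal axis) of tumor over LN for each gene, in MHCII-deleted mice (left panel) and control mice (right panel), relative to all RNA (grey) and with the libraries scaled to Cd3d, Cd3e and Cd3g (green). Filled points passed adjusted p under 0.05. On both scales Cd4 lies furthest to the right and Cd247 and Lck furthest to the left.

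RNA from cells that express none of these genes lowers all of them alike, so it cancels in a ratio of 2 members counted in the same library. The members were therefore compared with each other, first by scaling the libraries to Cd3d, Cd3e and Cd3g in the same edgeR model. The 3 scaling genes are then close to 0 by construction, and all other values are relative to them. The median of all tested genes shifted to 1.44 in the deletion effect in tumor on this scale, with 72.9% of genes called higher and 0.151% lower. Of the 6 other members only Cd247 passed, and it was higher: 0.30 ± 0.12 (edgeR, adjusted p = 0.0417). Cd4 had 0.27 ± 0.12 (adjusted p = 0.0607 in edgeR) and Lck 0.20 ± 0.09 (adjusted p = 0.0787), and Zap70, Lat and Cd5 had values between 0.06 and 0.13. In LN the deletion effect passed for 0 of 9 genes on this scale (3.62% of genes called higher, 0.0431% lower), with values up to 0.10. The difference of the deletion effects also passed for 0 of 9 (49.4% of genes higher, 0.115% lower), where it had passed for 9 relative to all RNA; no value exceeded 0.23 (Cd4, SE 0.17).

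A second scale used T cell genes outside the members: Cd2, Thy1, Bcl11b, Sh2d1a, Cd28, Ets1 and Rhoh. An eighth gene of that list, Ptprcap, had a count of 0 in all 10 libraries. On this scale 4 of 9 members remained lower in tumors of MHCII-deleted mice than in tumors of control mice (0.754% of genes called lower, 60.7% higher). They were Cd3g (-0.43 ± 0.09), Cd3d (-0.38 ± 0.10), Cd3e (-0.32 ± 0.11) and Zap70 (-0.31 ± 0.11), with adjusted p from 0.00188 to 0.034 in edgeR. Cd247 (-0.08 ± 0.12) and Cd4 (-0.10 ± 0.12) were nearest to 0. Without Bcl11b and Ets1, whose transcripts are GC-rich, only Cd3g was called (-0.27 ± 0.10, adjusted p = 0.0269 in edgeR, with 0.323% of genes called lower). Leaving out those 2 genes was chosen after seeing the data. The difference of the deletion effects passed for 0 of 9 members on the scale of all 7 T cell genes (44.4% of genes called higher, 0.158% lower). Relative to all RNA, the scaling genes themselves had differences from -0.59 (Ets1) to -2.17 (Bcl11b). Bcl11b was also called higher in LN of MHCII-deleted mice than of control mice, at 1.65 (edgeR, adjusted p = 0.048). Values on this scale in the deletion contrasts therefore rest in part on a gene that moved in LN.

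In the tissue comparison the members kept differences among themselves on the CD3 scale. In MHCII-deleted mice Cd4 was higher in tumor, 0.53 ± 0.13 (edgeR, adjusted p = 0.00506), with 67.3% of all genes called higher and 1.84% lower. Lck had -0.25 ± 0.10 (adjusted p = 0.0533) and Cd247 -0.22 ± 0.13 (adjusted p = 0.147), which did not pass in edgeR. In control mice Lck, -0.38 ± 0.08 (adjusted p = 0.00679), and Cd247, -0.42 ± 0.11 (adjusted p = 0.0122), were lower in tumor (edgeR; 10.3% of genes called lower, 23.3% higher). Cd4 had 0.29 ± 0.11 and missed the threshold (edgeR, adjusted p = 0.0586). On the scale of other T cell genes, Cd4 was called higher in tumor in both genotypes, 0.58 ± 0.13 in MHCII-deleted and 0.47 ± 0.10 in control mice, and Cd3g in control mice, 0.37 ± 0.08, while 0 members were called lower. The scaling genes were themselves spread widely there: in MHCII-deleted mice 0.79 for Cd2, 0.73 for Ets1, 0.72 for Cd28, -0.82 for Rhoh and -0.88 for Bcl11b, each called in edgeR (adjusted p up to 0.0157). Values on this scale therefore rest on the mean of genes that differ among themselves by more than the members do. On that scale 68.8% of all genes were called higher and 1.67% lower in MHCII-deleted mice, and 29.5% higher and 6.39% lower in control mice.

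The simplest form of the same comparison is the count of a gene divided by the count of Cd3e in the same library, which needs no model and no scaling. For Cd4 this ratio was 1.02 and 0.881 in tumors of MHCII-deleted mice and 0.915, 0.850 and 0.707 in tumors of control mice, against 0.625 and 0.653 in LN of MHCII-deleted mice and 0.643, 0.646 and 0.658 in LN of control mice. Every tumor library lay above every LN library, and the ratio was 1.37-fold higher in tumor (exact permutation of tissue within genotype, two-sided, p = 0.0167, the smallest this design gives). For Cd3g the ratio was 0.757 and 0.847 in tumors of MHCII-deleted mice and 1.02, 0.786 and 0.814 in tumors of control mice, against 0.686 and 0.687 in LN of MHCII-deleted mice and 0.730, 0.738 and 0.724 in LN of control mice. It was 1.18-fold higher in tumor, again with no overlap (exact permutation, p = 0.0167). A ratio to Cd3e that was higher in every tumor library was also found for 27.5% of all tested genes other than Cd3e.

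For Lck the ratio to Cd3e was 1.14 and 1.20 in tumors of MHCII-deleted mice and 1.20, 1.04 and 0.950 in tumors of control mice, against 1.33 and 1.35 in LN of MHCII-deleted mice and 1.38, 1.27 and 1.35 in LN of control mice, so that all tumor libraries lay under all LN libraries, by a mean log2 difference of -0.26 (exact permutation, p = 0.0167). For Cd247 it was 0.308 and 0.263 in tumors of MHCII-deleted mice and 0.260, 0.245 and 0.224 in tumors of control mice, against 0.329 and 0.316 in LN of MHCII-deleted mice and 0.309, 0.321 and 0.314 in LN of control mice. The highest tumor value and the lowest LN value of Cd247 nearly touch, at 0.308 and 0.309, and the mean log2 difference was -0.28 (exact permutation, p = 0.0167). Over the 16 ratio tests, 8 for tissue and 8 for genotype, these 4 have an adjusted p of 0.0667, so 0 pass at 0.05. The permutation of tissue cannot give a p under 0.0167. A tissue ratio could therefore pass only if more than these 4 tests reached a similarly low p. Tumor and LN did not overlap for 4 of 8 ratios, 2 lower and 2 higher in tumor. Among all tested genes other than Cd3e, 2.46% had a ratio to Cd3e that was lower in every tumor library and 27.5% one that was higher. The count of higher ratios is thus near the share over all genes. The edgeR model with libraries scaled to Cd3e alone, added after seeing the data, called Cd4 higher in tumor of MHCII-deleted mice (0.57 ± 0.14, adjusted p = 0.00331) and of control mice (0.34 ± 0.11, adjusted p = 0.0345). In control mice it called Lck (-0.32 ± 0.10, adjusted p = 0.0302) and Cd247 (-0.37 ± 0.10, adjusted p = 0.0163) lower in tumor (edgeR; 68.7% and 25.2% of genes were called higher in MHCII-deleted and control mice, and 9.07% lower in control mice).

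The other ratios moved less between tissues. Zap70 per Cd3e was 0.261 and 0.257 in tumors of MHCII-deleted mice and 0.267, 0.257 and 0.250 in tumors of control mice, against 0.275 and 0.264 in LN of MHCII-deleted mice and 0.275, 0.263 and 0.270 in LN of control mice. The groups overlap, and the mean log2 difference between tumor and LN was -0.06 (exact permutation, p = 0.0333, adjusted p = 0.107). Cd5 per Cd3e had a mean log2 difference of 0.15 (exact permutation, p = 0.05, adjusted p = 0.114), Cd3d -0.09 (exact permutation, p = 0.25) and Lat 0.04 (exact permutation, p = 0.417). Between the genotypes, permuted within tissue, 0 of 8 ratios passed. Cd247 per Cd3e was the nearest, with a mean log2 difference of 0.13 (MHCII-deleted minus control, exact permutation, p = 0.05, adjusted p = 0.114), made up of 0.23 in tumor and 0.04 in LN. The other 7 had p of 0.24 or more by the same exact test. Marker sums of other cell types that carry some of these RNAs differed between the tissues, although single markers did not all follow. The NK cell markers, from cells that also express Cd247 and Lck, summed to 5.32 to 6.82 CPM in tumors of MHCII-deleted mice and 4.49 to 9.32 CPM in tumors of control mice, against 8.02 to 10.8 and 18.2 to 21.2 CPM in LN of the same genotypes. Most of the NK sum in LN was Klrb1c, with means of 7.62 CPM in MHCII-deleted and 18.4 CPM in control mice. Ncr1, Klrd1, Klre1 and Klrk1 averaged higher in tumor than in LN in both genotypes. The B cell markers summed to 5.94 to 11.6 and 14.2 to 19.4 CPM in tumor. In LN they summed to 47.1 to 76.1 and 76.1 to 136 CPM. Most of that was Cd22, with means of 38.7 and 77.6 CPM, and Cd79a did not average higher in LN. The part of either cell type in the ratios was not tested.

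**Figure D4:**
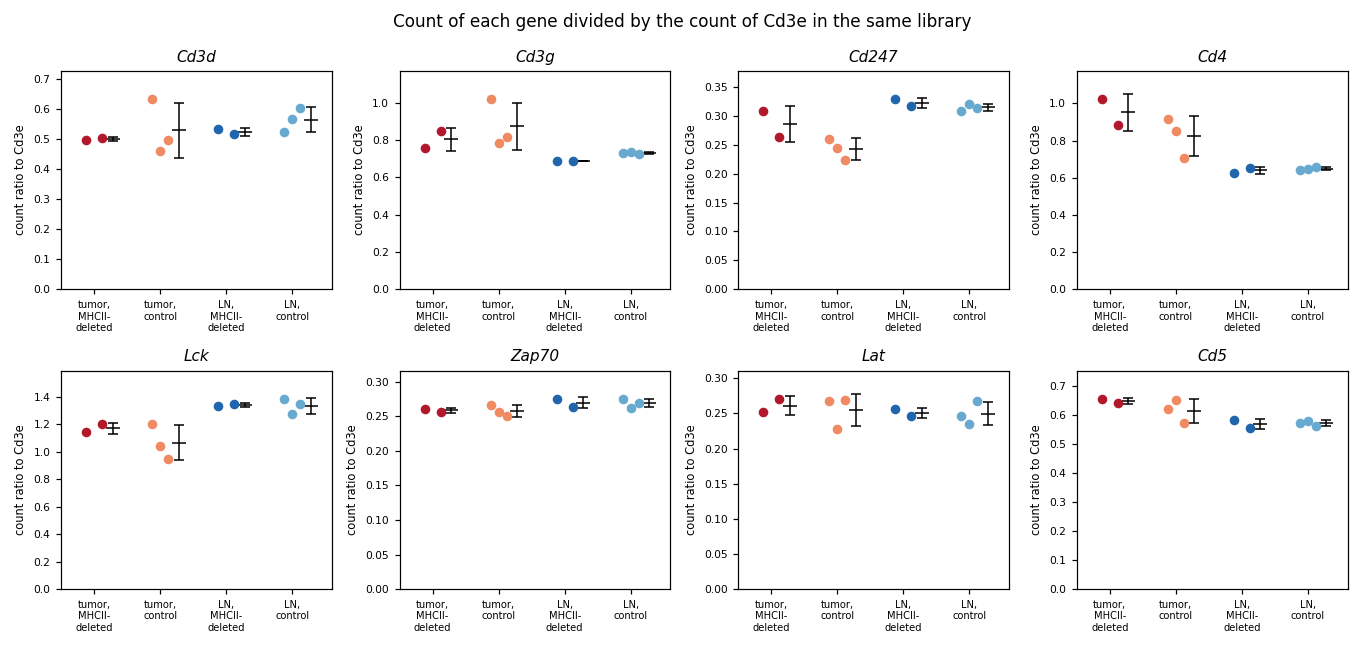
Count of each gene divided by the count of Cd3e in the same library (vertical axes, linear from 0), for the 10 libraries as points with the group mean ± SD beside them, from tumors of MHCII-deleted mice on the left to LN of control mice on the right. Cd4 and Cd3g are higher in the tumor libraries than in LN, Lck and Cd247 lower, and Zap70 stays between 0.250 and 0.275 throughout. Of all tested genes other than Cd3e, 27.5% had a ratio higher in every tumor library and 2.46% one lower.

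Taken pair by pair, the 9 genes form 36 ratios, and their spread over the 10 libraries is given as a description. Cd3e and Zap70 kept the most constant ratio, with an SD of 0.0441 on the log2 scale and a 1.10-fold range, although each of them alone ranged 2.88-fold (Cd3e) and 2.90-fold (Zap70) in CPM. Cd3e to Lat (SD 0.0861), Cd3e to Cd5 (SD 0.0927) and Cd247 to Lck (SD 0.0971) came next. The ratio of Cd247 to Lck stayed within a 1.25-fold range, and both had a lower ratio to Cd3e in tumor than in LN. The 2 widest ratios joined Cd4 to one of these: Cd247 to Cd4 had an SD of 0.387 and a 1.85-fold range, and Cd4 to Lck an SD of 0.382 and a 1.93-fold range. Within groups the pooled SD of these ratios was 0.0611 for Cd247 to Cd4 and 0.0989 for Cd4 to Lck, so most of their spread lay between groups.

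**Figure D5:**
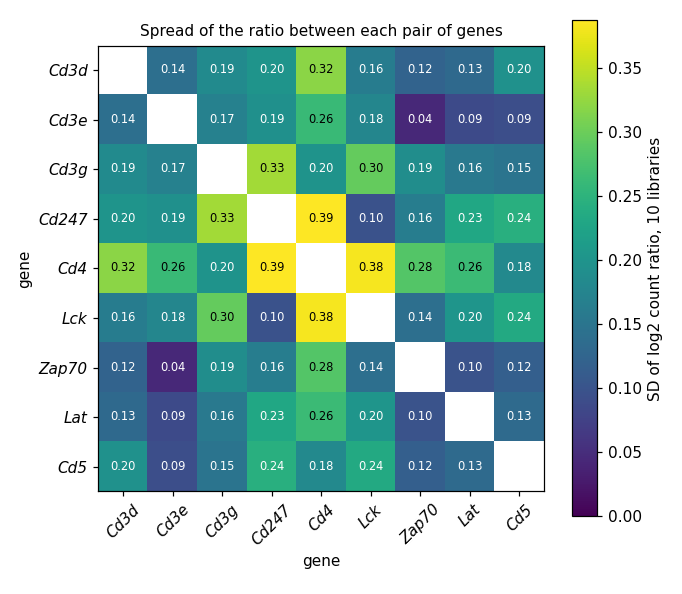
SD of the log2 count ratio over the 10 libraries for each pair of genes (colour and printed value; dark is a constant ratio, yellow a variable one). Cd3e with Zap70 is the darkest cell at 0.04, and Cd4 with Cd247 and with Lck are the brightest at 0.39 and 0.38.

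The pattern of Cd3e over the 10 libraries was also set beside that of every other gene with a mean of at least 10 CPM, by Pearson correlation of log2 CPM, as a description. All points share the low libraries from tumors of MHCII-deleted mice, so high values are common. Among 8912 genes Zap70 was at place 1 (r = 0.997), Cd5 was at place 4 (r = 0.992) and Lat at place 11 (r = 0.989). Cd3d was at place 45 (r = 0.977), Lck at 102 (r = 0.961) and Cd3g at 131 (r = 0.955). Cd247 followed at 159 (r = 0.949), and Cd4 was the least like Cd3e, at place 386 (r = 0.913). The closest genes outside the members, among 8871 with receptor and immunoglobulin segments left out, were Tmem50a (r = 0.994), Prkch (0.993), Fyb (0.991), Laptm5 (0.991), Vsir (0.990) and Lrwd1 (0.990). Laptm5 is a lysosomal protein that lowers TCR levels, Fyb the adaptor ADAP and Vsir the inhibitory receptor VISTA. Laptm5, for example, averaged 1825 ± 76.1 CPM in tumors of MHCII-deleted mice and 3897 ± 189.8 in tumors of control mice (SD, n = 2 and 3), and 3778 ± 114 and 4001 ± 189 CPM in LN of MHCII-deleted and of control mice (SD, n = 2 and 3).

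Around the members, 51 further genes of TCR signaling were counted by role, and all were tested. In tumors of MHCII-deleted mice 42 of 51 fell relative to tumors of control mice and 0 rose, against 13.7% of all tested genes called lower and 15.0% higher. The median log2 fold change was -0.83 over the 51 and 0.10 over all tested genes. The 3 constant chains of the receptor itself fell: Trac had -1.26 ± 0.13, Trbc1 -1.25 ± 0.15 and Trbc2 -1.19 ± 0.11 (edgeR, adjusted p from 0.00019 to 0.000438). Trac averaged 877 ± 191 CPM in tumors of MHCII-deleted mice and 2096 ± 143 CPM in tumors of control mice (SD, n = 2 and 3). Trbc1 and Trbc2 are near-identical copies, so their counts could be split between them. With the GC index as a covariate 1 of the 51 was called lower. Of kinases and their regulators 7 of 10 fell. Csk, which places the inhibitory phosphate on Lck, had -0.81 ± 0.11. Ptprc (CD45), which removes it, had -0.81 ± 0.12, and the phosphatase Ptpn22 had -0.83 ± 0.13. Of adaptors 15 of 16 fell, among them Lcp2 (SLP-76) with -1.02 ± 0.09, Sh2d2a (TSAd) with -1.10 ± 0.10 and Skap1 with -1.13 ± 0.11. Of effectors 9 of 12 fell, among them the transcription factor Nfatc1 (-0.95 ± 0.15) and the calcium sensor Stim1 (-0.72 ± 0.13). Of attenuators 8 of 10 fell, led by the adaptor Dok2 with -1.32 ± 0.09, which averaged 126 ± 2.79 CPM in tumors of MHCII-deleted mice and 312 ± 9.71 CPM in tumors of control mice. Dgka, a kinase that removes diacylglycerol, had -0.81 ± 0.09 and the phosphatase Ptpn7 -1.06 ± 0.15. All genes named here passed edgeR at adjusted p of 0.00316 or less. In LN the deletion called 0 of 51 lower and 1 higher, against 0.0359% and 1.07% of all tested genes. It was the adaptor Grb2, named after its value was seen, with a log2 fold change of 2.18 (edgeR, adjusted p = 0.046); under the replicate block and with RLE size factors it was not called, whereas 6 of 51 were called higher with DESeq2, with limma-voom and with only the groups compared. The kinase Fyn, also named after its value was seen, averaged 934 ± 16.1 CPM in LN of MHCII-deleted mice and 211 ± 41.2 CPM in LN of control mice (SD, n = 2 and 3) and missed the threshold (edgeR, adjusted p = 0.0615). The difference of the deletion effects was lower for 31 of 51, against 6.57% of all tested genes, and for 21 to 37 over omitted libraries. On either T cell scale it was lower for 0.

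On the CD3 scale 0 of 51 were lower and 37 higher in the deletion effect in tumor, close to the 72.9% of all tested genes called higher there. The median was 0.49 over the 51 and 1.44 over all genes. The receptor chains stayed with CD3: Trac had 0.06 ± 0.10, Trbc1 0.08 ± 0.13 and Trbc2 0.14 ± 0.10, and none passed (edgeR, adjusted p of 0.219 or more). Dok2 was also at 0.01 ± 0.13. Csk (0.52 ± 0.13), Ptprc (0.52 ± 0.15), Dgka (0.51 ± 0.11) and Stim1 (0.61 ± 0.16) were higher relative to CD3 (edgeR, adjusted p from 0.00183 to 0.00792). With T cell reference genes as the scale 3 of 51 were lower and 8 higher, against 0.754% and 60.7% of all tested genes. Several genes of the list are also expressed outside T cells; the melanoma marker sum differs between these groups as given above, and its part was not tested.

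Between tumor and LN of control mice 20 of the 51 genes were lower and 11 higher in tumor, against 16.1% and 22.8% of all tested genes. On the CD3 scale 18 were lower and 11 higher, against 10.3% and 23.3%. The count of higher genes is thus near the share over all genes on both scales. Trac did not pass (-0.05 ± 0.11, edgeR, adjusted p = 0.761), whereas Trbc1 (-0.62 ± 0.13) and Trbc2 (-0.76 ± 0.09) were lower. Tespa1, an adaptor of TCR-driven calcium release in thymocytes, fell to 46.5 ± 1.73 CPM in tumors of control mice, against 143 ± 8.79 CPM in LN of control mice (SD, n = 3 each), a log2 fold change of -1.62 ± 0.13. Ptpn6 (SHP-1), a phosphatase that dampens the kinases, averaged 203 ± 34.6 CPM in tumor and 475 ± 18.7 CPM in LN (-1.22 ± 0.13). The Tec family kinase Txk had -1.18 ± 0.15, the adaptors Lax1 -1.28 ± 0.10 and Trat1 -1.14 ± 0.10, and Prkcq (protein kinase C theta) -1.15 ± 0.13. Dgka (-0.80 ± 0.08), Ptpn7 (-0.86 ± 0.13) and Ubash3a (-0.63 ± 0.10) were lower as well. Higher in tumor were Unc119, which helps Lck to reach the membrane, with 148 ± 13.3 CPM in tumor and 61.4 ± 3.28 CPM in LN (1.27 ± 0.10), and the calcium channel Orai1 (1.69 ± 0.38). Orai1 varied widely in tumor, with 190.1 ± 91.5 CPM against 59.0 ± 5.20 CPM in LN. In MHCII-deleted mice it did not average higher in tumor, with 142 ± 91.8 CPM against 194 ± 2.34 CPM in LN (SD, n = 2 each). In control mice all genes named here but Trac passed edgeR at adjusted p of 0.00741 or less. On the CD3 scale each gene named here that passed kept its direction and passed again, at adjusted p of 0.00496 or less in edgeR. So it was on the scale of other T cell genes, at adjusted p of 0.0396 or less in edgeR. This does not hold for the whole list. On the scale of other T cell genes 11 of the 51 were lower and 13 higher, against 6.39% and 29.5% of all tested genes.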

How the data were processed

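Per the labels' protocols, cDNA came from 1 ng of RNA (SMARTer Ultra Low), 200 pg of it went into Nextera XT libraries, and single reads of 50 bases were taken on a HiSeq instrument. Named in the submitters' processing notes are GRCm38, featureCounts 1.4.6, STAR 2.4 and CASAVA 1.8.2; the annotation release and the strand setting are not given in the sources used here. The deposited values are the authors' unnormalized read counts for each Ensembl gene, whole numbers in 1 column per library. All 21556 identifiers were matched to GENCODE M21.

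Counts were tested with edgeR 4.0.16 in R 4.3.3: filterByExpr (minimum count 10), which left 13920 genes, TMM, and a robust quasi-likelihood fit to all 10 libraries as 4 group means, so that groups of 2 and 3 share an estimate of spread. P-values were Benjamini-Hochberg adjusted over all tested genes. Standard errors are the log2 fold change divided by the square root of F. Log2 CPM for correlations used a prior count of 2. Ratios used raw counts and an exact permutation test within strata. The code was checked on simulated counts. Alternatives were RLE size factors, DESeq2 1.42.0, limma 3.58.1 voom with quality weights, no filter, only the groups compared, a replicate block, both T cell scalings, other denominators and leaving out each library; a GC index (median deviation of genes with over 75% GC in some 100-base window) and 2 further scalings were added after seeing the data. No pair of replicates had counts that agree within sampling noise. The members and gene lists were chosen with earlier results of these data known. Named pathway genes are the 3 of each role with the smallest p in the deletion effect in tumor and in the tissue effect in control mice, beside the members and the constant chains; 1 effector so chosen is not reported here. Amplified reads carry no molecular identifiers, so counting error is a lower limit of the true error.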

Additional observations from a re-analysis of the deposited data

Results flagged for a closer look

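The 9 genes were each singled out because the effect of the deletion differed between tumor and LN by a test of the difference itself. The difference of the log2 fold changes (tumor minus LN, edgeR quasi-likelihood) was -1.20 for Cd3d, -1.23 for Cd3e, -1.25 for Cd3g, -1.04 for Cd247, -1.001 for Cd4, -1.10 for Lck, -1.23 for Zap70, -1.21 for Lat and -1.15 for Cd5, with adjusted p between 0.00312 and 0.0043. On the scale of the 3 CD3 chains, which holds Cd3d, Cd3e and Cd3g close to 0 by construction, 0 of the 9 differences passed. On the scale of other T cell genes 0 passed as well. The 10 melanoma markers summed to 19273 to 23391 CPM in tumors of MHCII-deleted mice and 4416 to 8805 CPM in tumors of control mice, and their part in the difference was not tested. No group has 4 or more libraries, so single libraries were not screened as outliers.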

How the results depend on the processing

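The fall of 9 members in tumors of MHCII-deleted mice, of 9 in tumor against LN of MHCII-deleted mice, and of 9 in the difference of the deletion effects kept its count under RLE size factors, DESeq2, limma-voom, no filter, the replicate block and each omitted library, and under a fit of only the groups compared where that could be run. It depended on the scale. With T cell reference genes the members called lower were 4, 0 and 0 in these contrasts, and those called higher in tumor against LN of MHCII-deleted mice were 1. With the CD3 chains, themselves close to 0 by construction, the counts were 0, 0 and 0 lower. On that scale 1 was higher in the deletion effect in tumor and 1 in the tissue effect in MHCII-deleted mice. Without Bcl11b and Ets1 they were 1, 0 and 0 lower, with 1 higher in that tissue effect. With the GC index as covariate 3 members were lower in the deletion effect in tumor. In control mice the tissue effect had 2 members lower and 0 higher; the 0 became 1 (Cd4) with RLE, DESeq2 and limma-voom and was 0 to 1 over omitted libraries, both T cell reference scalings gave 0 lower and 2 higher (3 higher without Bcl11b and Ets1), and the GC index gave 1 lower. The count of ratios that passed was 0 for tissue and 0 for genotype, 4 and 5 with T cell reference genes as denominator, and 3 for tissue with edgeR scaled to Cd3e. Counts over all genes moved by over 1.5 times too. The deletion effect in LN called 154 genes, against 23 with RLE, 659 with DESeq2, 787 with limma-voom, 806 with only the groups compared, 0 with the replicate block or the GC index, 510 with the CD3 chains, 473 without Bcl11b and Ets1, and 0 to 611 over omitted libraries. In tumor it called 3999, against 2519 with only the groups compared, 52 with the GC index, 8558 with T cell reference genes, 9295 without Bcl11b and Ets1, and 10164 with the CD3 chains. The tissue effect called 6175 in MHCII-deleted mice, against 9622 to 9805 with the 3 T cell scales, and 5409 in control mice, against 2397 with the GC index. The difference of the deletion effects called 1491, against 2487 with DESeq2, 5479 to 6891 with the T cell scales and 527 to 2281 over omitted libraries. Of the 51 pathway genes, the 42 lower in the deletion effect in tumor became 3, 0, 0 and 1, and the 0 higher became 8, 37, 15 and 0, with T cell reference genes, CD3 chains, without Bcl11b and Ets1, and with the GC index. In LN the 1 higher became 6 with DESeq2, limma-voom and only the groups compared, and 0 with RLE, no filter, the block and the GC index. In the tissue effect of control mice the 20 lower became 11 and 10 with the T cell reference scales and 10 with the GC index. The 42 lower in the tissue effect of MHCII-deleted mice became 10 or 11, and the 31 lower in the difference of deletion effects became 0, on the T cell scales. The cause was not tested.

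Signs turned as follows, as log2 values. Scaled to the CD3 chains, deletion in tumor: Cd3e 0.056, Cd247 0.30, Cd4 0.27, Lck 0.20, Zap70 0.063, Lat 0.10, Cd5 0.13, Csk 0.52, Ptprc 0.52, Ptpn22 0.49, Lcp2 0.30, Sh2d2a 0.22, Skap1 0.19, Nfatc1 0.37, Stim1 0.61, Dok2 0.014, Dgka 0.51, Ptpn7 0.25, Trac 0.059, Trbc1 0.076 and Trbc2 0.14; deletion in LN: Cd3e 0.064, Cd247 0.10, Cd4 0.042, Lck 0.070, Zap70 0.067, Lat 0.074 and Cd5 0.057; tissue in MHCII-deleted mice: Cd3g 0.17, Cd4 0.53, Lat 0.0052 and Cd5 0.14; tissue in control mice: Cd5 0.062 and Trac 0.034; and difference of deletion effects: Cd3d 0.031, Cd247 0.20, Cd4 0.23, Lck 0.13, Lat 0.021 and Cd5 0.077. Scaled to T cell reference genes, deletion in tumor gave Csk 0.14, Ptprc 0.15, Ptpn22 0.12, Stim1 0.23 and Dgka 0.14, tissue in MHCII-deleted mice Cd3g 0.22, Cd4 0.58, Lat 0.054 and Cd5 0.19, tissue in control mice Cd3d 0.023, Cd3e 0.13, Zap70 0.070, Lat 0.16, Cd5 0.24 and Trac 0.21, and the difference of deletion effects Cd247 0.072, Cd4 0.11 and Lck 0.0040. Without Bcl11b and Ets1, deletion in tumor gave Cd247 0.070, Cd4 0.047, Csk 0.29, Ptprc 0.30, Ptpn22 0.27, Lcp2 0.077, Nfatc1 0.15, Stim1 0.38, Dgka 0.29 and Ptpn7 0.033, deletion in LN Cd3e 0.093, Cd3g 0.0030, Cd247 0.13, Cd4 0.070, Lck 0.10, Zap70 0.10, Lat 0.10 and Cd5 0.086, tissue in MHCII-deleted mice Cd3g 0.17, Cd4 0.52, Lat 0.0063 and Cd5 0.14, and tissue in control mice Cd3d 0.10, Cd3e 0.21, Zap70 0.15, Lat 0.24, Cd5 0.31 and Trac 0.29. With the GC index, deletion in LN gave Cd247 0.095 and Cd4 0.12, and tissue in control mice Lat 0.11 and Trac 0.16. Values near 0 also turned: the tissue effect of Cd5 in control mice was 0.014 with RLE and with DESeq2, and the LN deletion effect of Cd247 was 0.0096 with limma-voom and 0.0086 with only the groups compared. Over omitted libraries the LN deletion effect ranged over -0.035 to 0.048 (Cd247), -0.068 to 0.0014 (Zap70), -0.060 to 0.019 (Lat) and -0.082 to 0.0033 (Cd5), and the tissue effect of Cd5 in control mice over -0.083 to 0.025. Ratios turned for tissue with the 3 CD3 chains as denominator (Lat -0.0065), with Cd3g (Lat -0.19 and Cd5 -0.089) and with T cell reference genes (Zap70 0.0028). For genotype they turned with Cd3g (Cd3d 0.017) and with T cell reference genes (Cd247 -0.12, Cd4 -0.16, Lck -0.18, Zap70 -0.25, Lat -0.23 and Cd5 -0.21), and over omitted libraries Zap70 ranged over -0.011 to 0.019 and Lat over -0.014 to 0.050.

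Same-numbered libraries of tumor and LN had correlations of their deviations from the group means of 0.0203 to 0.0462, all under 0.1. These values gave no sign of pairing by number, but groups of 2 and 3 libraries cannot exclude it. In MHCII-deleted mice both numbers give the same value, 0.0352, because the deviations of 2 libraries mirror each other. With the replicate as a block no member call changed, and only Lat in the LN deletion effect turned sign, to 0.0403. Each member had at least 4821 counts in every library, so depth limits these values less than the 2 libraries in each group of MHCII-deleted mice.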
